A study of Bos grunniens with 6 samples.

Results

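The genes described here mark 2 cell types of the tubules of the cattle-yak testis, Sertoli cells and spermatogonia. Of 16 marker symbols, 7 occurred in the m6A peak list, and these 7 genes with their 11 peaks are the subject of what follows, out of 16186 listed peaks on 8986 gene identifiers. They are *SOX9*, *WT1*, *DHH* and *FSHR* from the 8 Sertoli cell symbols and *ZBTB16*, *KIT* and *GFRA1* from the 8 spermatogonial symbols. The other 9 (*AMH*, *CLDN11*, *INHA*, *GATA4*, *UCHL1*, *ID4*, *DMRT1*, *SALL4* and *STRA8*) have no listed peak under their symbol, and since only the peak list pairs symbols with gene identifiers, their expression was not analysed here. Having a peak was thus the condition for entry and is no finding. Among all 20953 identifiers with an expression value, 41.9% carried a peak.

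The tissue was whole testis, obtained by castration, of 3 animals called TES5, TES6 and TES7, each 5 years old. They were cattle-yaks, the hybrid of yak and cattle whose males are sterile, and with no second genotype, age or treatment no contrast between conditions was possible. Each animal gave 1 library of RNA fragments pulled down with an m6A antibody (IP) and 1 of the same fragments before the pull-down (input). Peaks are stretches richer in IP than in input, given as a single list for the group with no score and no value per animal. Expression is given as FPKM (fragments scaled by transcript length and library size) in the 3 input libraries, whose FPKM values summed to between 280940 and 302365. Reads of hybrid animals were aligned to the yak genome, and copies inherited from cattle were not separated. In whole tissue, fewer cells of a type and less RNA per cell cannot be told apart.

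Sertoli cells are the somatic nurse cells of the seminiferous tubule. They form the blood-testis barrier, respond to follicle-stimulating hormone and secrete the signals that direct germ cells and the cells outside the tubule. Spermatogonia lie on the basement membrane and comprise stem cells, kept by Sertoli-derived GDNF acting on the GFRA1-RET receptor, and differentiating cells, which depend on the KIT receptor. m6A is written co-transcriptionally on mRNA, is typically concentrated near stop codons and in 3' UTRs, and is read by proteins that alter the stability and translation of the message.

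Most marker peaks were annotated to the 3' UTR or the last exon of their transcripts. In the annotation, the 3' UTR class held 5 of the 11, the exon class another 5 and the 5' UTR class the last 1. Counting the 3 exon class peaks that fell in the last exon, 8 of 11 were in the 3' UTR class or the last exon (72.7%, 95% Wilson interval 43.4% to 90.3%), against 33.7% of all listed peaks. The exon class held 45.5% of the marker peaks and 70.3% of all peaks. The 3' UTR class alone held 45.5% of the marker peaks (21.3% to 72.0%), against 20.8% of all peaks. The intervals cover counting error only, and peaks of the same gene share their source, so these shares describe 7 genes and were not tested. Of the 7 genes, 3 carried 2 or more peaks, and 46% of all identifiers with a peak did so.

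**Figure D1:**
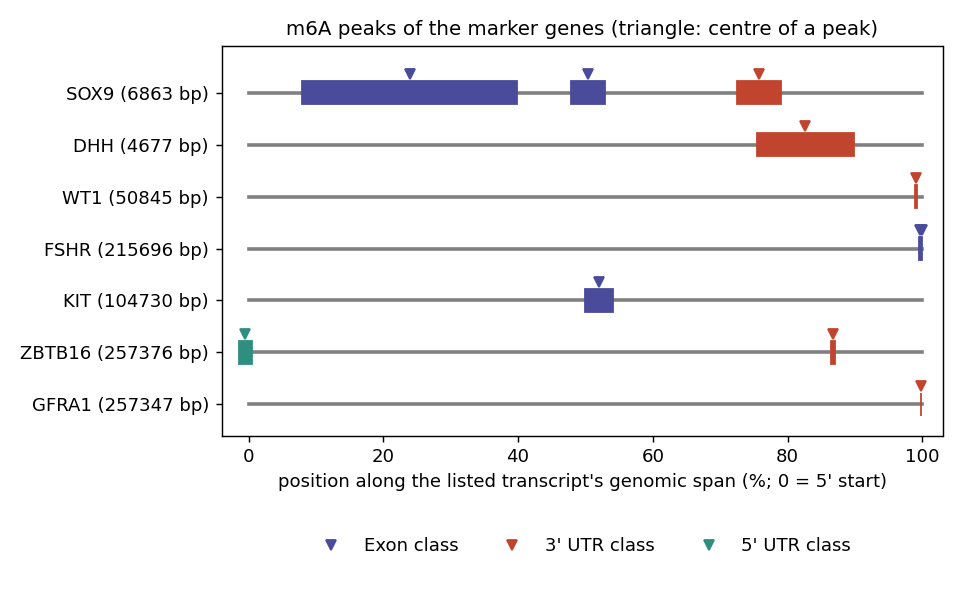
Position of the 11 peaks along the genomic span of each listed transcript, introns included, from the 5' start (0%) to the 3' end (100%). The length of each span is given in brackets and colour gives the annotation class. The *WT1*, *FSHR* and *GFRA1* peaks sit at the extreme 3' end, the *KIT* peak near the middle and the first *ZBTB16* peak across the start; the *GFRA1* peak is too narrow to show beyond its triangle.

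*SOX9*, the transcription factor that commits the fetal gonad to Sertoli cell fate, carried the most peaks, 3. Its identifier ENSBGRG00000026479 spans 5246560 to 5253422 of chromosome 19 (plus strand, genome build LU_Bosgru_v3.0). The first peak, 2187 bp from 5247107 to 5249293, was annotated to exon 1 of 3 and began 547 bp after the transcript start. The second, 349 bp from 5249840 to 5250188, was annotated to exon 3 of 3, 546 bp further on. The last, 448 bp from 5251532 to 5251979, was in the 3' UTR class and ended 1443 bp before the transcript's end. Together the peaks covered 43.5% of this short gene, the largest share among the 7 genes, whose others ranged from 0.0583% to 14.5%.

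*WT1*, a zinc finger factor needed for Sertoli cell identity and upstream of *SOX9*, carried a single narrow peak. ENSBGRG00000014474 spans 14412368 to 14463212 of chromosome 13 (minus strand). Its 150 bp peak (14412763 to 14412912) was of the 3' UTR class and ended 395 bp before the transcript's 3' end. *DHH*, the hedgehog ligand that Sertoli cells send to Leydig and peritubular cells, likewise carried 1 peak in the 3' UTR class. ENSBGRG00000001304 spans 76707938 to 76712614 of chromosome 5 (minus strand), and its 676 bp peak from 76708412 to 76709087 ended 474 bp before the 3' end.

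*FSHR*, the receptor through which follicle-stimulating hormone acts on Sertoli cells, carried a pair of narrow peaks in its last exon. ENSBGRG00000011870 spans 51638717 to 51854412 of chromosome 9 (minus strand), a span of 215696 bp. The peaks, 299 bp from 51639414 to 51639712 and 300 bp from 51638717 to 51639016, were both annotated to exon 10 of 10 and stood 397 bp apart. The second reached the listed 3' end exactly, at 51638717, the end of the transcript in the annotation.

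The 3 spermatogonial genes differed more from one another. *GFRA1*, the GDNF co-receptor of stem spermatogonia, resembled *WT1*. ENSBGRG00000016210 spans 39534166 to 39791512 of chromosome 25 (minus strand), and its only peak, 150 bp from 39534564 to 39534713 and again of the 3' UTR class, ended 398 bp before the 3' end. The 150 bp peaks of *GFRA1* and *WT1* thus had the same width and differed by 3 bp in their distance from the end of the listed transcript.

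*ZBTB16*, the transcriptional repressor PLZF of undifferentiated spermatogonia, carried peaks at both ends. ENSBGRG00000005665 spans 63306238 to 63563613 of chromosome 13 (minus strand). The 4611 bp peak from 63562490 to 63567100 was in the 5' UTR class, and 3487 bp of it lay before the listed transcript start, with 1124 bp inside. It was the only one of the 11 peaks that left its listed transcript. The other, 1700 bp from 63339412 to 63341111, was in the 3' UTR class although it ended 33174 bp before the 3' end of the listed transcript. The annotation does not name the transcript whose UTR is meant.

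*KIT*, the receptor of differentiating spermatogonia, which Leydig cells also make, was the only gene with a peak annotated to an exon that is neither the first nor the last. ENSBGRG00000023915 spans 52171265 to 52275994 of chromosome 6 (minus strand). Its 4469 bp peak from 52219280 to 52223748 was annotated to exon 2 of 22 and spanned 49.9% to 54.2% of the way along the transcript's genomic span, much as the second *SOX9* peak did in its far shorter gene (47.8% to 52.9%). No marker peak overlapped a listed peak, or the listed transcript, of another gene with a peak. Genes without a peak could not be checked in this way, and the peaks carry no strand of their own.

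**Figure D2:**
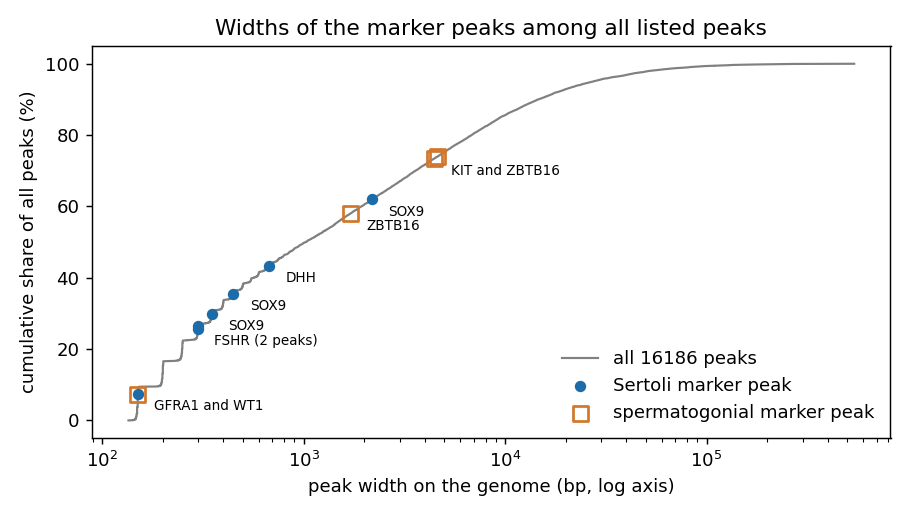
Cumulative distribution of the widths of all 16186 listed peaks (grey line, log axis), with the 11 marker peaks placed on it. The Sertoli marker peaks (filled circles) lie between 150 and 2187 bp, and 3 of the 4 spermatogonial marker peaks (open squares) between 1700 and 4611 bp.

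The widths are spans on the genome and include any intron inside the peak. The median of the 11 was 448 bp, against 1022 bp over all peaks, and 7 of them (63.6%, 35.4% to 84.8%) were at most 1000 bp wide, against 49.8% of all peaks. Of the 7 Sertoli peaks 6 were this narrow, the exception being the first *SOX9* peak, whereas of the 4 spermatogonial peaks only that of *GFRA1* was. The median width was 349 bp for the Sertoli peaks and 3084.5 bp for the spermatogonial peaks, a description of 4 and 3 genes that was not tested. The 5 marker peaks in the 3' UTR class had a median width of 448 bp and ended a median of 474 bp before the listed 3' end. For all 3373 peaks of that class, the medians were 447 bp and 446 bp.

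Expression of the 7 genes ran from *WT1* and *SOX9* at the top, near 30 FPKM, to *GFRA1* below 1. *WT1* was listed at 24.0, 33.3 and 31.5 FPKM in TES5, TES6 and TES7, a mean of 29.6 ± 4.94 (SD, n = 3). *SOX9* was listed at 26.7, 27.5 and 28.4 FPKM, a mean of 27.5 ± 0.807 (SD, n = 3). The *SOX9* values fell inside the range of *WT1*, so the order of these neighbours was not resolved.

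*DHH* followed with 20.1, 20.7 and 16.2 FPKM, a mean of 19.0 ± 2.41 (SD, n = 3), and lay below *SOX9* in every animal. *KIT* was listed at 8.64, 9.23 and 12.2 FPKM, a mean of 10.0 ± 1.91 (SD, n = 3). All 3 *KIT* values were below all 3 *DHH* values, a step of 1.90-fold in the means.

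*ZBTB16* was listed at 6.61, 8.76 and 11.2 FPKM, a mean of 8.85 ± 2.29 (SD, n = 3). *FSHR* was listed at 6.19, 9.05 and 7.96 FPKM, a mean of 7.73 ± 1.44 (SD, n = 3). The ranges of *KIT*, *ZBTB16* and *FSHR* overlapped between neighbours, and in TES6 *FSHR* was above *ZBTB16*, so the order within this middle group was not resolved either.

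*GFRA1* was listed at 0.572, 0.936 and 0.863 FPKM, a mean of 0.790 ± 0.193 (SD, n = 3). It stood 9.79-fold below *FSHR* in the means and was the only one of the 7 below 1 FPKM in every library. It nevertheless carried a called peak. Among identifiers with a peak, 7.77% had a lower mean FPKM than *GFRA1*, and 86.9% reached 1 FPKM in all 3 libraries, as 6 of the 7 markers did. FPKM keeps no read numbers, so the depth behind the *GFRA1* peak is unknown. The median over the 7 markers was 10.0 FPKM, against 7.36 over the 8775 identifiers that have both a peak and an expression value and 2.11 over all 20953.

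**Figure D3:**
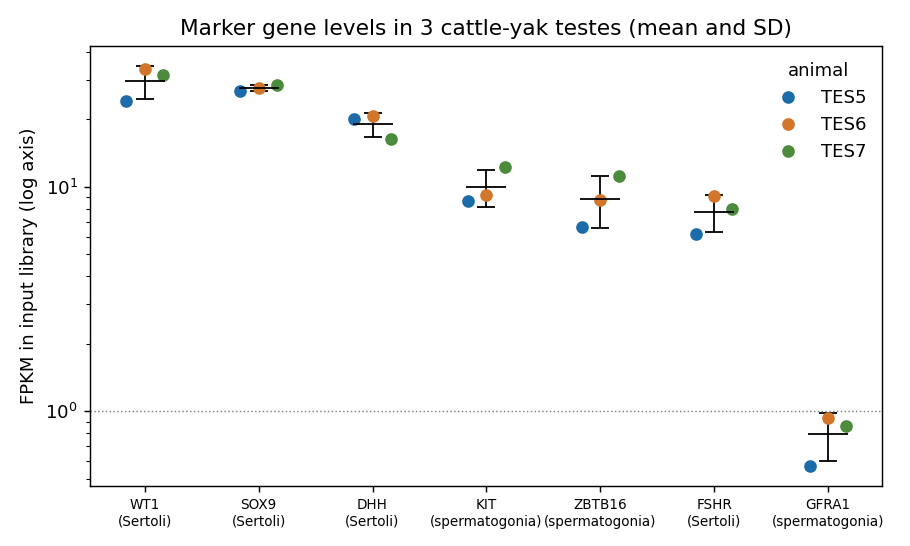
FPKM of the 7 marker genes, 1 point per input library (log axis, colour by animal), with the mean and SD over the 3 animals (bars); the dotted line marks 1 FPKM. *WT1*, *SOX9* and *DHH* lie between 16.2 and 33.3, *KIT*, *ZBTB16* and *FSHR* between 6.19 and 12.2, and *GFRA1* below the line in every animal.

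The spread between animals differed among the markers. *SOX9* was the steadiest, with a coefficient of variation of 2.93%, lower than that of all but 5.07% of the genes with at least 1 FPKM in every library. *ZBTB16* varied most, at 25.8%, with 1.69 times as much in TES7 as in TES5. *GFRA1* had 24.4%, *KIT* 19.0%, *FSHR* 18.7%, *WT1* 16.7% and *DHH* 12.7%. The median over the 6 markers with at least 1 FPKM in every library was 17.7%, against 11.6% over genes with a peak that passed the same minimum.

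The lowest value was in TES5 for 6 of the 7 genes, *DHH* being the exception with its lowest value in TES7. TES5 was below TES6 for 7 of 7 markers. Of the 6 markers with at least 1 FPKM in every library, 5 were lowest in TES5, and 41.8% of all identifiers with a peak that passed this minimum were. TES5 was picked out after the values were seen, and with 3 animals no test can single one out. The count of 6 was the same after the libraries were rescaled to an equal sum or by median ratio, alternatives added after the values were seen.

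Markers of spermatocytes, the germ cells in meiosis, were mostly highest in TES5. Of 8 spermatocyte symbols in the list used, 6 had a peak, beside 41.9% of all identifiers with an expression value. Among the 11402 identifiers with at least 1 FPKM in every library, 7629 had a peak. These 6 genes had 11 identifiers with a peak, of which 1 was listed at 0 in every library. On the same 6 genes, 8 identifiers had at least 1 FPKM in all libraries. Of these 8, 7 were highest in TES5, an identifier of *DMC1* (ENSBGRG00000002697) being the exception, and 35.9% of all identifiers with a peak that passed this minimum were. Below the minimum, another identifier of *DMC1* was highest in TES6, with 0.560, 0.635 and 0.446 FPKM in TES5, TES6 and TES7. So was 1 of *SYCP2*, with 0.770, 0.883 and 0.749 FPKM. Summed, the 8 that passed came to 111.6 FPKM in TES5 against 77.0 in TES6 and 79.7 in TES7. The summed level of the 3 spermatogonial markers was 15.8, 18.9 and 24.2 FPKM in the same order, and that of the 4 Sertoli markers 77.0, 90.6 and 84.1 FPKM. The part of cell composition in these differences was not tested.

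**Figure D4:**
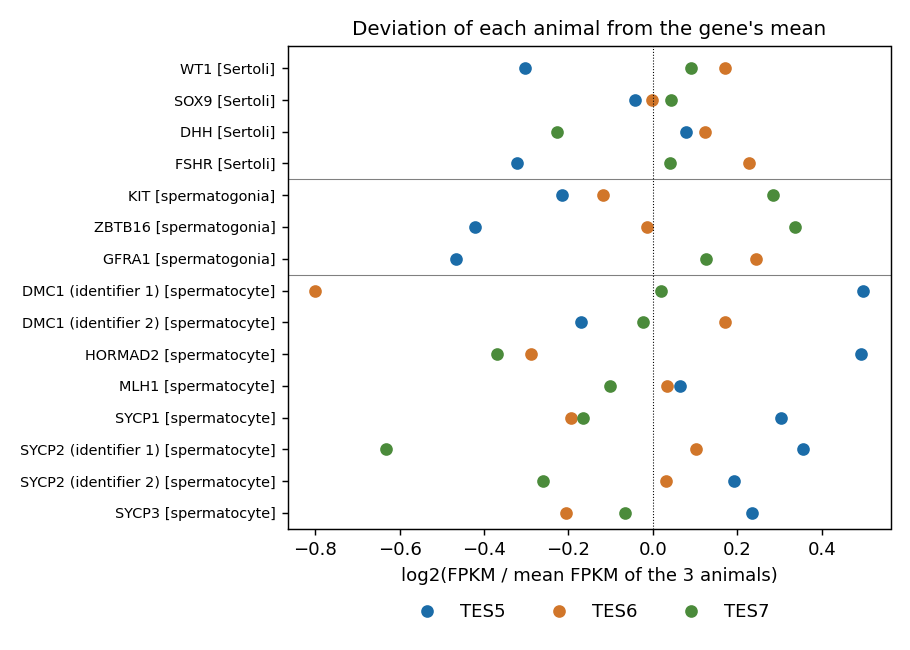
Deviation of each animal from the mean of the 3 animals, as log2 of the FPKM ratio, for the 4 Sertoli markers, the 3 spermatogonial markers and the 8 identifiers of spermatocyte markers with at least 1 FPKM in every library. TES5 (blue) is the lowest point for 6 of the 7 Sertoli and spermatogonial genes and the highest for 7 of the 8 spermatocyte identifiers. *GFRA1*, below 1 FPKM in every library, is among the 7, whereas spermatocyte identifiers below that minimum are left out.

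By their medians, the 4 Sertoli markers with a peak were listed above the 3 spermatogonial markers with a peak in each animal. The 9 markers without a listed peak take no part in this comparison. On the log2(FPKM + 1) scale, the median of the 4 Sertoli genes exceeded that of the 3 spermatogonial genes by 1.59 in TES5, by 1.35 in TES6 and by 0.89 in TES7, a mean of 1.28 ± 0.36 (SD, n = 3). It was not tested. The difference is between particular genes, since *FSHR* lay below *KIT* and *ZBTB16* in the means, and it does not count cells. The summed Sertoli level was 4.87, 4.79 and 3.47 times the summed spermatogonial level in TES5, TES6 and TES7.

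Several genes that act directly with the markers also carried peaks. For *GFRA1*, the co-receptor *RET* had 1 peak of 3672 bp annotated to exon 8 of 20, and its FPKM was 3.80, 7.85 and 5.02, lowest in TES5 and highest in TES6 as for *GFRA1*. *RET* stood 6.65, 8.38 and 5.81 times above *GFRA1* in TES5, TES6 and TES7, so the 2 receptor subunits were listed at unequal levels in every animal. *ETV5*, a transcription factor that GDNF induces in stem spermatogonia and that Sertoli cells also use, carried 2 peaks and had the other order, with 11.3, 9.67 and 10.9 FPKM. Of the 7 identifiers of GDNF and FGF signalling with a peak, 3 were lowest and 3 highest in TES5. The ligand *GDNF* had no listed peak. In all, 7 of 9 symbols of GDNF and FGF signalling had a peak, against 41.9% of all identifiers with an expression value. That share takes in identifiers with low or no FPKM. Of the 11402 identifiers with at least 1 FPKM in every library, 7629 had a peak.

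For *DHH*, 10 of 13 genes of the hedgehog pathway had a peak, 29 peaks on 11 identifiers, beside 41.9% of all identifiers with an expression value. All 11 identifiers reached 1 FPKM in every library, as did 86.9% of all identifiers with a peak. Among all 11402 identifiers that reached it, 7629 had a peak. The *DHH* receptor *PTCH1*, itself a target of the pathway, was listed under 2 separate identifiers on chromosome 7, with 3 peaks at 12.9 ± 1.80 FPKM and 2 peaks at 4.01 ± 0.299 FPKM (SD, n = 3). How reads were divided between these identifiers is not known. The exon class held 24 of the 29 peaks, against 70.3% of all listed peaks, while the single peak of *DHH* was of the 3' UTR class.

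*KITLG*, the Sertoli-made ligand of *KIT*, and *AMHR2* and *MEIOSIN* had no listed peak. *RARA*, a retinoic acid receptor of Sertoli cells, carried 4 peaks at 26.1 ± 0.712 FPKM (SD, n = 3). The inhibin and activin beta subunits *INHBA* (2 peaks, 15.5 ± 1.54 FPKM) and *INHBB* (1 peak, 26.0 ± 5.08 FPKM) both carried peaks. *ZFPM2*, the cofactor of GATA4, carried 3 peaks in its last exon, exon 8 of 8, at 0.658 ± 0.131 FPKM, a level like that of *GFRA1*.

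By group, 13 of 16 genes of AMH and inhibin signalling, 8 of 17 of the retinoic acid group, 7 of 12 Sertoli cell regulators and 7 of 14 blood-testis barrier genes had a peak, beside the 41.9% of all identifiers, which 8 of 17 and 7 of 14 come near. The counts are of symbols and that share is of identifiers, not all of which have a symbol in the files, so they are not like for like. The share also takes in identifiers with low or no FPKM. Of the 11402 identifiers with at least 1 FPKM in every library, 7629 had a peak and 3773 had none. The gene ontology term spermatogenesis was attached to 2 of the 5 marker genes that carry any term, *SOX9* and *KIT*, and to 1.33% of the 7944 identifiers with a peak and a term. *WT1* and *ZBTB16* carried no term, so the count leaves out genes with known roles in the testis. The marker genes were chosen as markers of testis cells, so a higher share than over all identifiers is no finding.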

How the data were processed

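MeRIP-seq libraries (IP and input) of 3 cattle-yak testes gave 2 deposited tables. Per the labels and the supplementary methods, the authors used Trimmomatic for trimming, SortMeRNA against ribosomal RNA and HISAT2 2.0.4 for alignment to LU_Bosgru_v3.0, kept unique reads, called peaks with MeTDiff and annotated them with ChIPseeker. How the animals were combined into 1 peak list, and the program behind FPKM, are not given in the sources used here. The FPKM values deposited by the authors are not read counts; no whole-read steps were seen among low values, so depth per gene is unknown.

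Members were taken by symbol from the peak list, and a RefSeq gene table matched 0 of the Ensembl identifiers. Peaks were counted as listed, shares given with Wilson 95% intervals, and FPKM summarised as mean and SD over 3 animals. No test across genes was run. All 7 markers with a peak were named, with partner genes from fixed lists. Members and lists were chosen with earlier results of these data known. Work was done in Python (3.11.15) with pandas (2.3.3), numpy (2.4.6), matplotlib (3.10.9) and SciPy (1.17.1), and the procedures were tested on simulated data. Alternatives were merged intervals, narrow peaks only, another minimum FPKM or pseudocount, libraries rescaled, and leaving out each animal.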

Additional observations from a re-analysis of the deposited data

How the results depend on the processing

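No paired analysis was possible because peaks come as 1 list for all animals and FPKM is given for input libraries alone. The 11 marker peaks stayed 11 with identical intervals counted once or merged within 100 bp, and were 10 without *GFRA1*, the gene below 1 FPKM. They also stayed 11 when exon class peaks had to be annotated to an exon of the listed gene. That check covered only the 5 exon class peaks, since the UTR classes name no transcript. Among the 7 peaks of at most 1000 bp, the 5' UTR class held 0%, against 9.09% of the 11, since its only peak is 4611 bp wide. The number of markers with at least 1 FPKM in every library, 6, became 7 at a minimum of 0.5 and stayed 6 when the mean was used or any animal was left out. The Sertoli minus spermatogonial difference, 1.28, was 1.36 with a pseudocount of 0.1, 1.28 after rescaling, 1.19 without *GFRA1* and from 1.12 to 1.47 with each animal left out. All 35 alternative means of the 7 genes moved by less than 1 SD, which leaving out 1 of 3 animals cannot exceed. The count of spermatocyte identifiers highest in TES5, 7, was 6 after rescaling to an equal sum. Shares of 11 peaks have wide intervals, and motifs, stop codons and exonic widths were not analysed here.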

Other observations

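Other genes of spermatogonia and early germ cells, outside the 16 markers, were set beside them. Of 17 such symbols, 7 carried a peak, near the 41.9% of all identifiers with an expression value that did. Of their 12 peaks the exon class held 6, the 3' UTR class 4 and the 5' UTR class 2. Over all listed peaks these classes held 70.3%, 20.8% and 8.82%. *TAF4B*, a TFIID subunit needed to keep spermatogonial stem cells, was listed at 22.7, 23.6 and 24.7 FPKM in TES5, TES6 and TES7. *FOXO1*, a transcription factor of stem spermatogonia, was listed at 14.9, 19.4 and 19.9 FPKM, and *NANOS3*, a germ cell RNA-binding protein, at 8.44, 6.75 and 9.02 FPKM. *EGR4* and *POU3F1*, transcription factors of undifferentiated spermatogonia, carried a peak each at 0.482 ± 0.0628 and 0.455 ± 0.112 FPKM (SD, n = 3), below *GFRA1*. Of the 7 genes, 6 were lowest in TES5, *NANOS3* being the exception with its lowest value in TES6, and 0 were highest there. Over identifiers with a peak and at least 1 FPKM in every library, 41.8% were lowest and 35.9% highest in TES5, a minimum that *EGR4* and *POU3F1* did not reach. These genes were listed with results of these data known, and their order among animals was not tested.

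Marker lists of other cell types were counted in the same way. All 5 markers of peritubular myoid cells, all 4 of macrophages and all 3 of endothelium were in the peak list, as was 1 of 7 of Leydig cells and 0 of 7 of spermatids, beside 41.9% of all identifiers with an expression value. With at least 1 FPKM in every library as the minimum, 7629 of 11402 identifiers had a peak. The expression of the markers without a peak was not analysed here, so their absence from the list says nothing of their level. The summed FPKM of the 5 peritubular markers was 364.4 in TES5, 415.3 in TES6 and 394.5 in TES7, a sum that *ACTA2*, smooth muscle actin, dominated with 226.0, 254.1 and 232.3 FPKM. Of the 5 genes 4 were lowest in TES5, and *DES*, the intermediate filament desmin, was lowest in TES7. The lowest value was in TES5 for 10 of 13 identifiers of AMH and inhibin signalling, 6 of 8 of the retinoic acid group and 6 of 11 of the hedgehog pathway. The same held for 4 of 7 identifiers of Sertoli cell regulators and for *STAR*, the only Leydig cell marker with a peak. Over identifiers with a peak and at least 1 FPKM in every library, 41.8% were lowest in TES5. Other lists had another order. The summed FPKM of the 8 blood-testis barrier identifiers was 291.0, 276.4 and 313.7 in TES5, TES6 and TES7, with 2 of the 8 lowest in TES5, and that of the 3 endothelial genes 7.83, 8.59 and 6.71, with 1 of the 3 lowest in TES5. The 4 macrophage genes summed to 17.4, 17.5 and 21.2 FPKM, with 2 of the 4 lowest in TES5.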
